A study of Mus musculus with 6 samples.

Results

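GABA-A receptor subunits were examined in whole-brain RNA of mice in which neurons could lose HuR, the product of Elavl1, which binds AU-rich elements in messenger RNA. The group was formed by 7 named genes of the receptor family, of 16 measured here: the alpha subunits Gabra2, Gabra3, Gabra4, Gabra5 and Gabra6, the beta subunit Gabrb2 and the delta subunit Gabrd. They are 7 of 22180 genes with a probeset annotated to exactly 1 symbol. Each gene is read by 1 probeset, and all 7 passed the limit on dim genes, as did 16635 genes in all.

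Knockout brains (3 mice) came from the genotype labelled Thy1Cre-ERT2-EYFPHuRf/f, with both Elavl1 alleles floxed, and control brains (3 mice) from Thy1Cre-ERT2-EYFPHuRf/+, with 1 floxed allele, which the labels call WT. Both groups carried a Cre that tamoxifen switches on, driven with its EYFP reporter by the Thy1 promoter, which is active in neurons, and both received tamoxifen at 10 and 11 weeks of age. Brains were taken at 91 days. The controls may therefore have lost 1 allele in the same neurons, Thy1-driven Cre need not act in every neuron, and glia keep the gene. The labels name separate samples without saying more of each animal, and the p-values cover only the spread among those samples.

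GABA-A receptors are chloride channels built of 5 subunits around a pore, and they carry most of the fast inhibition in the brain. GABA binds between an alpha and a beta subunit, and the choice of alpha subunit, and of a gamma or delta subunit beside it, sets where in the neuron the receptor sits and which drugs it answers to. Receptors with Gabra2 or Gabra3 are mostly synaptic. Those with Gabrd, and many of those with Gabra4, Gabra5 or Gabra6, lie outside synapses and carry tonic inhibition. In whole tissue, fewer cells of a type and less RNA per cell cannot be told apart.

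Some facts of the whole series bear on the subunits. Elavl1 itself had log2 levels of 8.22, 8.17 and 8.27 in knockout brains, against 8.27, 8.01 and 8.53 in control brains, so its groups overlapped. Its log2 fold change was -0.050 with a 95% confidence interval from -0.39 to 0.29 (limma, adjusted p = 0.9998; two-sided exact permutation p = 0.7). The position of its probeset relative to the floxed exons was not analysed here, so this value does not check the labels. The arrays numbered 3 stood apart from the others in both groups: Xist, which coats the inactive X chromosome of females, was at 7.68 in knockout 3 and 7.69 in control 3, and at 2.52 to 2.79 on the other 4 arrays. The labels give no sex per sample. All markers listed for neurons (10 of 10), astrocytes (8 of 8) and microglia (8 of 8), and 9 of 9 measured markers of oligodendrocytes, passed the limit on dim genes.

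No rise or fall was called for any of the 7 subunits in knockout brain, though the intervals given below do not exclude a change in either direction. In limma, 0 of 7 passed a Benjamini-Hochberg adjusted p of 0.05, beside 0 of 16635 genes tested (0%), and 0 of 7 had an unadjusted p under 0.05, beside 282 genes (1.7%). With the replicate number as a block, again 0 of 7 subunits and 0 of 16635 genes (0%) passed, and at an unadjusted p under 0.05 there were 0 subunits and 806 genes (4.85%). Of the log2 fold changes, 5 lay below 0 and 2 above, from -0.12 for Gabra5 to 0.042 for Gabra2. Their median was -0.060, beside 0.013 for all genes tested. These signs were not stable: all 7 lay below 0 with array weights or without both arrays numbered 3, and without knockout 1 the values were 3 below and 4 above 0, with a median of 0.039. What differed between subunits was how widely the 6 arrays were spread. Levels below are log2(intensity + 1) after quantile normalization, and fold changes are differences of these levels, knockout minus control.

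**Figure D1:**
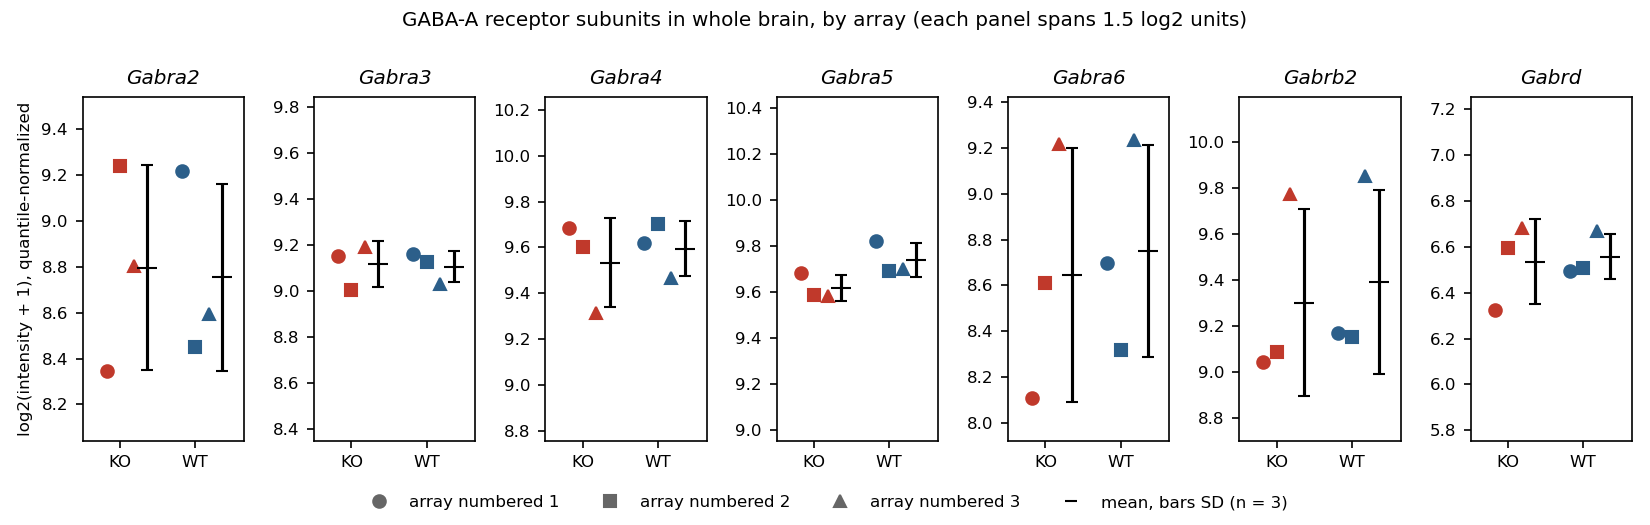
Levels of the 7 subunits on each array, as log2(intensity + 1) after quantile normalization, with knockout (KO) left of control (WT) and the mean and SD beside the points (n = 3 each). Every panel spans the same number of log2 units, so Gabra2, Gabra6 and Gabrb2 can be seen to vary most within groups and Gabra3 and Gabra5 least.

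Gabra2 encodes an alpha subunit of synapses and axon initial segments in forebrain. It had levels of 8.34, 9.24 and 8.80 in knockout brains 1, 2 and 3, against 9.22, 8.45 and 8.60 in control brains 1, 2 and 3. Knockout 2 and control 1 were the high arrays, knockout 1 and control 2 the low ones, so each group held a high and a low array. The highest and the lowest were both knockout arrays. The distance from the lowest to the highest array was 1.86-fold. The groups averaged 8.80 ± 0.447 and 8.75 ± 0.407 (SD, n = 3 each), and the log2 fold change was 0.042, with a 95% confidence interval from -0.59 to 0.68 (limma; exact permutation p = 0.9). Within same-numbered arrays the difference was -0.87 for number 1, 0.79 for number 2 and 0.21 for number 3. The sign turned to -0.18 without knockout 2, -0.11 without control 2 and -0.037 without control 3, and the value was 0.27 without knockout 1 or without control 1. In 94.7% of genes tested the spread within groups was smaller than that of Gabra2. This spread was not tied to the arrays numbered 3, which lay in the middle. Its neighbours on chromosome 5 were ordered differently: Gabrg1, next to it, was at 8.52, 8.52 and 7.83 in knockout brains and at 8.54, 8.55 and 7.90 in control brains. Closest profiles, here and below, were found among all genes tested by the root mean square difference of centred levels over 6 arrays. With 16635 genes searched over so few arrays, a close match need not mean a link, and shared regulation was not tested. For Gabra2 the closest profiles belonged to Olfr1339, an olfactory receptor gene (0.116), and 6230400D17Rik (0.119), where Gabra2 had an SD of 0.383. Olfr1339 was dim, at 3.16, 4.04 and 3.42 in knockout brains, close to the limit of 3.28 on dim genes.

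Gabra3, an X-linked alpha subunit known from monoaminergic neurons and the reticular thalamus, was among the steadiest. Its levels were 9.15, 9.00 and 9.19 in knockout brains, against 9.16, 9.13 and 9.03 in control brains. The arrays of both groups were intermixed within a 1.14-fold range. The log2 fold change was 0.010, and its 95% confidence interval from -0.24 to 0.26 corresponds to 0.847-fold to 1.20-fold (limma; exact permutation p = 0.9). The arrays numbered 3, where Xist was high, held the highest value of Gabra3 in knockout brain and the lowest in control brain. The closest profiles were those of Lta, the cytokine lymphotoxin alpha (0.021), and Cd200 (0.023), against an SD of 0.0773 for Gabra3. Cd200 is a membrane glycoprotein of neurons that restrains microglia. Lta was dim, at 3.37, 3.29 and 3.44 in knockout brains and 3.41, 3.37 and 3.28 in control brains.

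Gabra4, which pairs with the delta subunit in thalamus, striatum and dentate gyrus, had levels of 9.69, 9.60 and 9.31 in knockout brains, against 9.62, 9.70 and 9.47 in control brains. The arrays numbered 3 were the lowest of the 6, and the groups overlapped. The log2 fold change was -0.060 with a confidence interval from -0.37 to 0.25 (limma; exact permutation p = 0.6), and without knockout 3 it was 0.049. Med28, a subunit of the Mediator complex (0.021), and Rpgr, the retinitis pigmentosa GTPase regulator (0.029), had the closest profiles, against an SD of 0.148 for Gabra4.

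Gabra5, the alpha subunit of tonic receptors on hippocampal pyramidal cells, came nearest to a separation of the groups. Its levels were 9.68, 9.58 and 9.58 in knockout brains, against 9.82, 9.69 and 9.70 in control brains. All 3 knockout arrays lay below all 3 control arrays, though knockout 1 at 9.68 and control 2 at 9.69 nearly touched. Among all genes, 425 (2.55%) showed the same arrangement, 523 (3.14%) had all knockout arrays above all control arrays, and 948 (5.7%) showed no overlap in either direction. The log2 fold change was -0.12 ± 0.10 (SE), or 0.918-fold, with a confidence interval from 0.779-fold to 1.08-fold (limma, adjusted p = 0.9998). The two-sided exact permutation p was 0.1, the smallest that 3 against 3 arrays allow. The same-numbered differences were -0.14, -0.11 and -0.12, and with the replicate number as a block the adjusted p was 0.984. The separation rested on the scaling: with values as deposited the highest knockout array stood at 9.68 and the lowest control array at 9.67, and with arrays centred on their median the control arrays ran from 9.58 to 9.87 around the knockout range of 9.61 to 9.68. Gabra5 was the 1 subunit whose log2 fold change kept its sign in all 17 alternative settings, from -0.16 to -0.078. Most of these settings could not turn it. Leaving out or weighting arrays keeps the sign where all knockout arrays lie below all control arrays. The settings for the filter, the probesets, the variance model and the block left the value unchanged. Its closest profiles were those of Nxph1, the synaptic ligand neurexophilin (0.024), and Slc25a51, a mitochondrial carrier (0.025), against an SD of 0.0894. The spread of Gabra5 within groups was small, with only 5.89% of genes tested below it.

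Gabra6 varied more than any other of the 7. It is known as an alpha subunit of cerebellar granule cells, where it combines with the delta subunit in tonic receptors. Its levels were 8.11, 8.61 and 9.22 in knockout brains 1, 2 and 3, against 8.70, 8.32 and 9.24 in control brains 1, 2 and 3. Knockout 3 and control 3 were the highest arrays, and knockout 1 and control 2 the lowest, 2.18-fold apart at the extremes. Group means were 8.65 ± 0.554 and 8.75 ± 0.461 (SD, n = 3 each). The log2 fold change was -0.10 with a confidence interval from -0.85 to 0.64, or 0.556-fold to 1.55-fold (limma; exact permutation p = 0.7), and it turned to 0.16 without knockout 1 and to 0.14 without control 3. Car8, a carbonic anhydrase relative of Purkinje cells (0.070), and the protocadherin Pcdhb16 (0.087) had the closest profiles, against an SD of 0.459 for Gabra6.

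Gabrb2, the beta subunit of many synaptic receptors and neighbour of Gabra6 on chromosome 11, separated the arrays numbered 3 without grading the rest. Its levels were 9.04, 9.09 and 9.77 in knockout brains, against 9.17, 9.15 and 9.85 in control brains. Knockout 3 was 0.71 above the mean of knockouts 1 and 2, and control 3 was 0.69 above the mean of controls 1 and 2, while the other 4 arrays lay within 9.04 to 9.17. The log2 fold change was -0.090, with a confidence interval from -0.69 to 0.51 (limma; exact permutation p = 0.5). The same-numbered differences were -0.12, -0.064 and -0.082, the knockout being lower each time, and with the replicate number as a block the interval narrowed to -0.29 to 0.11. Without control 3, which leaves 1 array numbered 3 in knockout brain only, the value was 0.14; it was 0.039 without knockout 1, 0.017 without knockout 2 and -0.33 without knockout 3. The closest profiles were those of Plcb4, a phospholipase C of Purkinje cells and thalamus (0.016), and Sgip1, an endocytic adaptor of neurons (0.030), against an SD of 0.366.

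Gabrd, the delta subunit of tonic receptors, had levels of 6.33, 6.59 and 6.68 in knockout brains, against 6.49, 6.51 and 6.67 in control brains. The arrays numbered 3 were again the highest, by a smaller margin than for Gabra6, and the groups overlapped. The log2 fold change was -0.022 (confidence interval from -0.32 to 0.28, limma; exact permutation p = 1), and its sign turned with values as deposited (0.0084) or arrays centred on their median (0.044). Wdr5b, a WD40 repeat protein (0.013), and Lig3, a DNA ligase (0.020), had the closest profiles, against an SD of 0.133.

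Across the 7 subunits, both arrays numbered 3 were the highest of the 6 for Gabra6, Gabrb2 and Gabrd and the lowest for Gabra4. This held after quantile normalization, for the deposited values and after centring each array on its median. Over all genes tested the same was true of 23.4% (highest) and 20.6% (lowest), so such a pattern was common on these arrays. Of all 14 subunits tested, the other 7 included, 8 (57.1%) were highest and 2 (14.3%) lowest in both arrays numbered 3. Cerebellar markers moved in the same arrays. Of 11 cerebellar granule cell markers, 7 were highest in both arrays numbered 3 and 0 lowest. Their summed intensity was 936, 1150 and 2316 in knockout brains and 1108, 900 and 2188 in control brains, a range of 936 to 2316 and of 900 to 2188. Array 3 stood 2.22-fold above the mean of arrays 1 and 2 in knockout brain and 2.18-fold in control brain. The dimmest of these markers averaged 3.59, above the limit of 3.28, and none was at 0.

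Among the granule cell markers, Cbln3, a secreted cerebellin, was at 6.55, 7.11 and 9.18 in knockout brains and at 6.97, 6.46 and 9.16 in control brains. Fat2, a protocadherin of granule cell axons, was at 4.46, 4.86 and 7.39 in knockout brains and at 5.38, 3.92 and 7.35 in control brains. Both shared with Gabra6 the order in which the arrays numbered 3 came first, control 1 and knockout 2 in the middle, and knockout 1 and control 2 last. Cbln3 and Fat2 lie outside the rule for naming given under processing. Cbln1, Zic1 and Zic2 had this order too, but Grin2c, Zic4, Neurod1, Etv1, Pax6 and Barhl1 did not. Nor was it particular to granule cells, since the Purkinje cell markers Car8, Rgs8 and Slc1a6 had it, though Calb1 and Ppp1r17 did not. Its share over all genes was not counted. Of 5 measured Purkinje cell markers, 4 were highest in both arrays numbered 3, with summed intensities of 1771 to 3278 in knockout brains and 2011 to 2845 in control brains. Pan-neuronal markers (8 of 10) and thalamic neuron markers (6 of 8) were also highest there, with sums of 13265 to 17985 and 1172 to 1635 in knockout brains and of 12522 to 17989 and 1218 to 1707 in control brains. Microglia markers (7 of 8) were lowest there, with sums of 903 to 1440 in knockout and 946 to 1383 in control brains, as were 5 of 8 astrocyte markers, with sums of 7072 to 8128 in knockout and 6992 to 7409 in control brains. The other lists were mixed: 2 of 6 striatal markers were highest and 2 lowest in both arrays numbered 3, 2 and 2 of 8 hippocampal, 2 and 0 of 7 cortical, 3 and 2 of 8 interneuron and 1 and 0 of 9 oligodendrocyte markers. The part of cell composition and of sex in the subunit profiles was not tested.

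**Figure D2:**
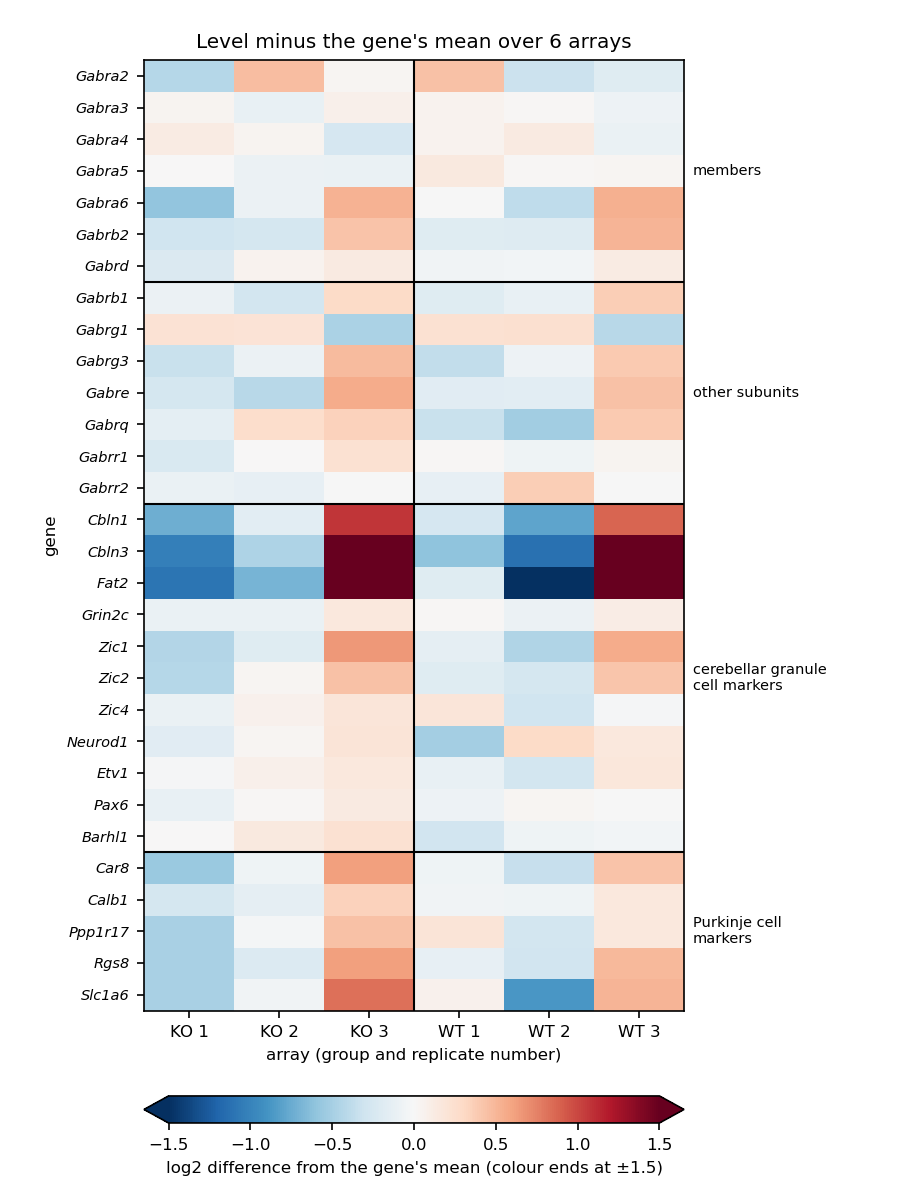
Log2 level minus the gene's mean over the 6 arrays, for the 7 subunits, the other 7 subunits tested, 11 cerebellar granule cell markers and 5 Purkinje cell markers, with knockout (KO) arrays left of control (WT) arrays. Gabra6 and Gabrb2 are high (red) in KO 3 and WT 3, as are Cbln1, Cbln3, Fat2 and Zic1, and Gabra2 is high in KO 2 and WT 1 instead.

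The subunit genes lie in clusters, and the order of the arrays differed within a cluster. RefSeq places Gabra2 and Gabra4 on chromosome 5, with Gabrg1 and Gabrb1 on either side of them, Gabra6 and Gabrb2 next to each other among tested genes on chromosome 11, Gabra5 near Gabrg3 on chromosome 7, Gabra3 between Gabre and Gabrq on the X chromosome, and Gabrd on chromosome 4. In the chromosome 5 cluster, Gabrg1 differed in array 3 from the mean of arrays 1 and 2 by -0.69 in knockout and by -0.65 in control brain. The same difference was -0.33 and -0.19 for Gabra4, and 0.47 and 0.51 for Gabrb1, which thus had the opposite sign in both groups. Gabra2, between Gabrg1 and Gabra4, differed by 0.0097 in knockout 3 and by -0.24 in control 3.

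The sequences before the start sites are shown for the pair on chromosome 11, whose levels were both highest in the arrays numbered 3, and for the pair on chromosome 5, whose profiles differed. They are the 250 bases upstream of the RefSeq start in build GRCm38.p6, written 5′ to 3′ on the gene's strand. Capitals mark the GC box GGGCGG and the nuclear factor I half-site TTGGC, on either strand. Gabra6 is at chr11:42321073-42321322 (minus strand), Gabrb2 at chr11:42420190-42420439 (plus strand, the first of 3 starts listed), Gabra2 at chr5:71095850-71096099 (minus strand) and Gabra4 at chr5:71658309-71658558 (minus strand).
Gabra6: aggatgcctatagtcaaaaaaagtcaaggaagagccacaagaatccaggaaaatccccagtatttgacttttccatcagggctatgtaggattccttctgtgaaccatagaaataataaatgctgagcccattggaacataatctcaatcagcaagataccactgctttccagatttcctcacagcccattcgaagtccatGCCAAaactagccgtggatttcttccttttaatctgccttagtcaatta
Gabrb2: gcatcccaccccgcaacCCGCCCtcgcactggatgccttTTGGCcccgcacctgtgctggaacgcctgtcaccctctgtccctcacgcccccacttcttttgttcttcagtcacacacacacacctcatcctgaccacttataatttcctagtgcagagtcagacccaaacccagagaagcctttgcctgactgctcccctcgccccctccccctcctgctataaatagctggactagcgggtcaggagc
Gabra2: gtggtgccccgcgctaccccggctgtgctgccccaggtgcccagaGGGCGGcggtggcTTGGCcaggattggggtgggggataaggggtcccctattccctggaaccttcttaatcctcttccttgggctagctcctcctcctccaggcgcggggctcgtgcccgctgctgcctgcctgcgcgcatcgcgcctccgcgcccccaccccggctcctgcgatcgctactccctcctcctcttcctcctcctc
Gabra4: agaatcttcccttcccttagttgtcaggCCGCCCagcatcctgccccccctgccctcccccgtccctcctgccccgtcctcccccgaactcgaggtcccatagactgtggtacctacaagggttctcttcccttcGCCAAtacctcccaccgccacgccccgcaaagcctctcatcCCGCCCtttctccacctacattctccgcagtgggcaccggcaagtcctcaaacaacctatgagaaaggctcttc

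The 4 windows differed in base composition. Gabra6 had 40.8% G or C and 2 CpG pairs, and Gabra2 had 70.0% and 18, with Gabrb2 (58.8% and 8) and Gabra4 (61.2% and 12) between them. The median of 32851 windows of the same length was 52.4%, with 6 CpG pairs. Each of the 4 held 1 half-site TTGGC, a motif found in 41.5% of all windows, at position -49 from the start in Gabra6, -211 in Gabrb2, -192 in Gabra2 and -115 in Gabra4. The GC box occurred once in Gabrb2 and Gabra2 and 2 times in Gabra4, was not among the letters of the Gabra6 window, and was found in 32.7% of all windows. The E-box CANNTG occurred once in Gabrb2 and Gabra2 and in 66.2% of all windows, and the cAMP response element TGACGTCA was in none of the member windows and in 1.55% of all. A TATA box, TATAAA, was in the Gabrb2 window shown and in both windows listed for Gabra3, and in 12.4% of all windows. The other 2 windows listed for Gabrb2, with 54.0% and 36.8% G or C, held no match to any of the 5 motifs. These motifs overlapped nowhere in the 4 sequences, and a match is a run of letters and not a measured binding site. Of the 7 subunits 6 had a window in the table, and Gabrd is the other.

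Other GABA-A receptor subunits gave the same result. Of 9 measured, 7 passed the limit on dim genes, and Gabrp and Gabrr3 lay under it with means of 3.15 and 2.97. None of the 7 tested passed in either direction; 3 log2 fold changes lay above 0 and 4 below, with a median of -0.037. The beta subunit Gabrb1 was at -0.051, and the gamma subunits Gabrg1 and Gabrg3, which link receptors to synapses, at -0.037 and 0.040. The epsilon subunit Gabre was at -0.078, the theta subunit Gabrq at 0.31 ± 0.25 (SE), and the rho subunits Gabrr1 and Gabrr2, best known from retina, at 0.0067 and -0.16. Gabrq had levels of 4.43, 4.85 and 4.93 in knockout brains, against 4.25, 4.06 and 4.98 in control brains. Controls 1 and 2 were the low arrays, and the groups overlapped. Gabre, Gabrr1 and Gabrr2 averaged 3.94, 3.41 and 3.49 in knockout brain and 4.02, 3.40 and 3.64 in control brain, close to the limit of 3.28, where differences are compressed.

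**Figure D3:**
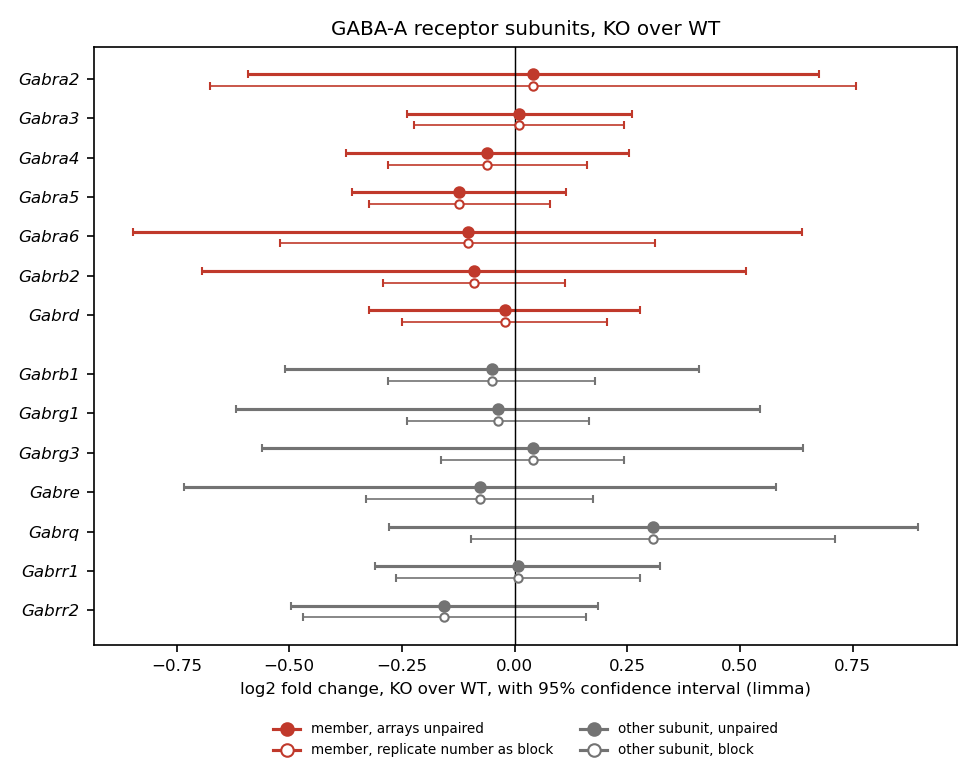
Log2 fold change of knockout over control with its 95% confidence interval (limma) for the 7 subunits (red) and the other 7 tested subunits (grey), with arrays unpaired (filled) and with the replicate number as a block (open). All intervals include 0, and the block narrows those of 6 of the 7 subunits and widens that of Gabra2.

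Precision differed between subunits. The confidence interval of Gabra3, Gabra4, Gabra5 and Gabrd excluded changes beyond 0.772-fold and 1.21-fold, whereas those of Gabra2, Gabra6 and Gabrb2 reached 0.556-fold at the low end and 1.60-fold at the high end. The half-width of the interval over all genes tested had a median of 0.33 on the log2 scale.

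Genes that make, move and answer to GABA were set beside the receptor subunits. GABA-B receptor genes, coding for the metabotropic receptor and its KCTD auxiliary proteins, gave 0 of 6 past the test in either direction, with a median log2 fold change of 0.013. Kctd12b had the lowest value, -0.25 ± 0.24 (SE), and Gabbr1, the ligand-binding subunit, was at 0.033. GABA synthesis, transport and breakdown gave 0 of 8, with a median of 0.0080. There the astrocytic transporter Slc6a11 was at 0.066, the betaine and GABA transporter Slc6a12 at -0.066, succinic semialdehyde dehydrogenase Aldh5a1 at 0.075 and the synthetic enzyme Gad2 at -0.058.

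Receptor anchoring and trafficking genes gave 0 of 18 past the test, with 14 values above 0 and a median of 0.036; over all genes tested 54.8% of values lay above 0. The kinesin adaptor Trak1 was at 0.11, the phospholipase C-like Plcl2 at 0.080, the palmitoyltransferase Zdhhc3 at 0.084 and Clptm1, which holds unassembled receptors inside the cell, at 0.082. The scaffold gephyrin, Gphn, which clusters receptors at inhibitory synapses, was added after its values were seen and was at -0.0086. Its levels were 9.19, 9.33 and 9.19 in knockout brains, against 9.24, 9.25 and 9.24 in control brains.

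Genes of the chloride gradient, which decides whether an open receptor inhibits, gave 0 of 9 with a median of -0.00050. The bicarbonate exchanger Slc4a10 was at -0.098, the kinase Stk39 at 0.13, the anion exchanger Slc4a3 at 0.081 and the chloride importer Slc12a2 at -0.061. The exporter Slc12a5, likewise added after its values were seen, followed the arrays numbered 3 as Gabrb2 did. It was at 8.89, 8.72 and 9.50 in knockout brains, against 8.70, 8.86 and 9.62 in control brains.

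**Figure D4:**
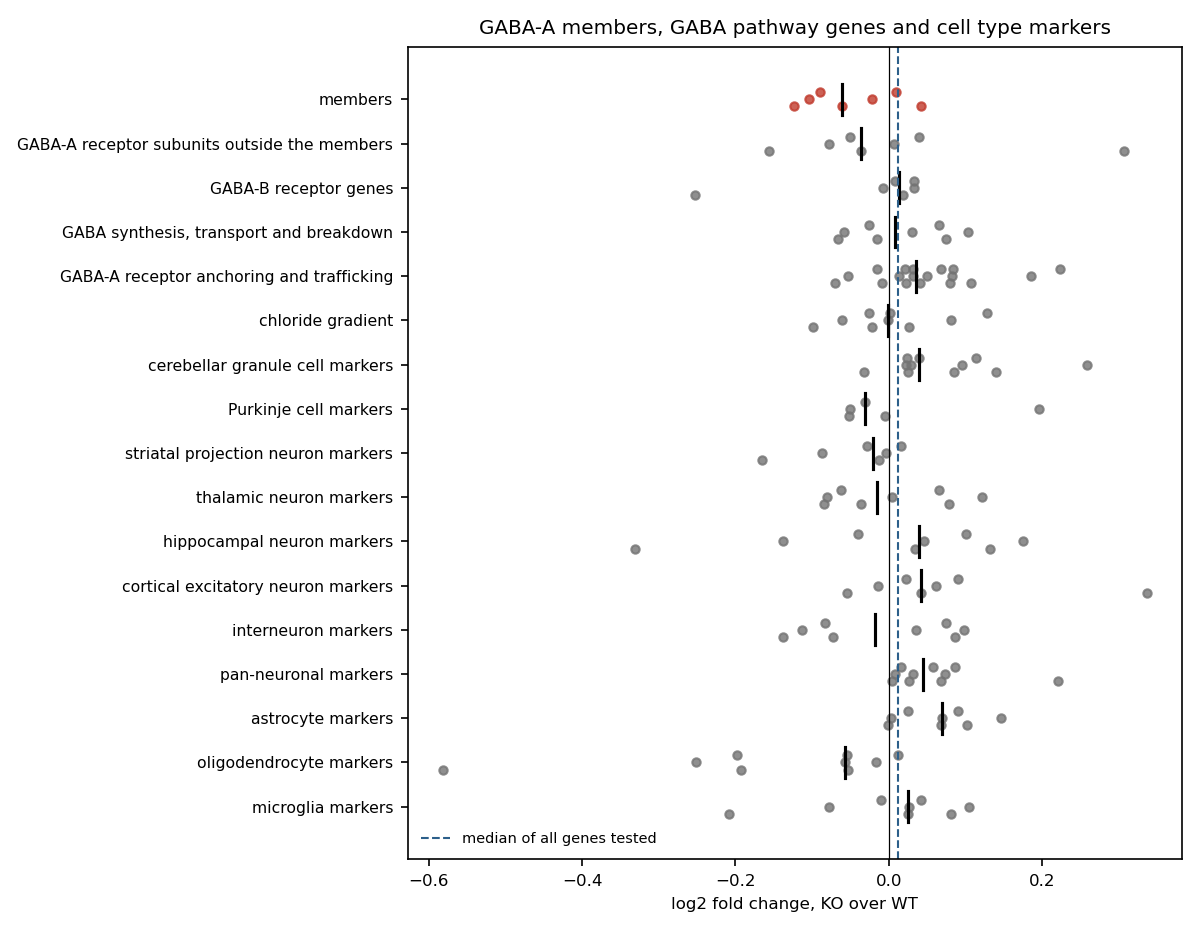
Log2 fold changes of knockout over control for each gene (points) of the 7 subunits (red), the GABA pathway lists and the cell type markers (grey), with the list median as a vertical bar and the median of all genes tested as a dashed line. The 7 subunits lie between -0.12 and 0.042, within the span of the other lists.

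Markers of the neurons that carry these subunits also gave no gene past the adjusted threshold. Median log2 fold changes were 0.040 for cerebellar granule cells (11 tested), -0.031 for Purkinje cells (5), -0.021 for striatal projection neurons (6), -0.016 for thalamic neurons (8), 0.040 for hippocampal neurons (8), 0.042 for cortical excitatory neurons (7) and -0.018 for interneurons (8). Their members with the smallest p were Barhl1 at 0.26 and Etv1 at 0.14 in granule cells, Slc1a6 at 0.20 and Ppp1r17 at -0.051 in Purkinje cells, and Pde10a at -0.17 and Rgs9 at -0.087 in the striatum. In the thalamus they were Synpo2 at 0.12 and Prkcd at 0.078, in hippocampus Dsp at -0.33 and Spink8 at 0.13, in cortex Fezf2 at 0.34 and Rorb at -0.054, and among interneurons Calb2 at -0.14 and Npy at -0.11. In Dsp and Rgs9 (1 of 8 hippocampal and 1 of 6 striatal markers), as in Gabra5, all knockout arrays lay below all control arrays, beside 2.55% of all genes. Barhl1 and Fezf2 (1 of 11 granule cell and 1 of 7 cortical markers) also separated the groups, but in the opposite direction, with knockout higher, beside 3.14% of all genes. No Purkinje cell, thalamic or interneuron marker separated the groups. Dsp averaged 3.69 in knockout and 4.02 in control brain, and Barhl1 3.72 and 3.46, close to the limit of 3.28 on dim genes. Of the 8 hippocampal markers, 5 had values above 0.

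Medians were 0.045 for pan-neuronal markers (10 tested), 0.069 for astrocytes (8), -0.056 for oligodendrocytes (9) and 0.026 for microglia (8). The genes with the smallest p were Nefm at 0.22 and Uchl1 at 0.073 among pan-neuronal markers, Gfap at 0.15 and Aqp4 at 0.10 in astrocytes, Opalin at -0.58 and Cldn11 at -0.25 in oligodendrocytes, and P2ry12 at -0.21 and Cx3cr1 at -0.078 in microglia. Of the oligodendrocyte markers 8 of 9 lay below 0, and in Opalin, Cldn11, Mal and Mog (4 of 9, beside 2.55% of all genes) all knockout arrays lay below all control arrays, as for Gabra5. Except in Opalin, the groups nearly touched. The highest knockout and lowest control arrays were at 8.193 and 8.196 for Mog, 9.285 and 9.289 for Cldn11, and 9.735 and 9.746 for Mal. Whether these separations hold under other scalings was not tested. The confidence interval of Opalin, from 0.499-fold to 0.894-fold, did not include 1-fold, with an adjusted p of 0.9998 in limma. All 10 pan-neuronal markers lay above 0. The part of these markers in the value of Gabra5 was not tested.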

How the data were processed

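Total brain RNA of 6 mice, 3 knockout and 3 control, was hybridised to 1-colour arrays, 1 array a sample. The authors deposited linear intensity values for 41340 probesets, made with MAS5 per the submitters' processing notes, which give no version; scaling target, background correction and filters: not given in the sources used here. Array medians ran from 13.4 to 14.6; the number of arrays limits the precision.

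Values were taken as log2(intensity + 1) and quantile-normalized, since array medians differed by 0.12 (limit 0.1). Probesets with 1 symbol (23521; 1814 had several and 16005 are unnamed here) gave 22180 genes, each read by the brightest probeset on average, and 5545 under the 25th percentile were left out. Fold changes on this scale understate the change of dim genes. RefSeq (GRCm38.p6, promoter sequences included) matched 16523 of 16635 genes by ID. Groups were compared with limma 3.58.1 in R 4.3.3 (lmFit and eBayes, two-sided, Benjamini-Hochberg over all genes), with exact permutation over 20 assignments for the genes where a value is given. The procedure was tested on simulated data with independent noise on each array, which lacked the shift shared by the arrays numbered 3. Plots used matplotlib 3.10.9 in Python 3.11.15.

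The replicate numbers were checked for pairing: deviations from group means correlated at 0.31, 0.37 and 0.75 for numbers 1, 2 and 3, all above 0.1, the limit for taking numbers as pairs; this comes from the data and not from a label, and control 1 with knockout 2 (0.40) and control 2 with knockout 1 (0.37) correlated as well. The comparison reported and the permutations are unpaired, and fits blocked by number are an alternative, named where used. The rule for naming took all 7 subunits, every other measured subunit, from each list the 2 genes with the smallest p (4 for the lists on GABA synthesis, anchoring and the chloride gradient), and the 2 closest profiles of each subunit. The subunits and lists were chosen with earlier results of these data known.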

Additional observations from a re-analysis of the deposited data

How the results depend on the processing

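With 17 alternative settings, 0 genes were called in any, and 0 of 119 subunit values passed the adjusted threshold. Of these values 98 kept their sign and 21 took the other. The 98 include values that could not turn. Without the brightness filter, with the upper 50% of genes, the mean of probesets, trend and robust fitting or the replicate block, every subunit kept its main value. The median over the 7 subunits, -0.060, ran from -0.11 to 0.039 with 1 array left out, the positive value without knockout 1. The replicate block changed no subunit's value, since the design is balanced, and no call, and gave 806 genes at an unadjusted p under 0.05, against 282 without it, beside 755 with array weights, 766 with Xist as a covariate and 854 without both arrays numbered 3; the cause was not tested. Signs turned for Gabra2 (-0.018) and Gabra3 (-0.020) with array weights, for Gabra2 (-0.041) and Gabra3 (-0.067) without both arrays numbered 3, and for Gabrd with values as deposited (0.0084), arrays centred on their median (0.044) or a pseudocount of 16 (0.0080). With 1 array left out, values ran from -0.18 to 0.27 for Gabra2, -0.028 to 0.067 for Gabra3, -0.14 to 0.049 for Gabra4, -0.16 to -0.081 for Gabra5, -0.39 to 0.16 for Gabra6, -0.33 to 0.14 for Gabrb2 and -0.097 to 0.082 for Gabrd; the cause was not tested. Centring arrays on their median moved the share of all genes with values above 0 to 68.6%, against 54.8% after quantile normalization and 56.9% with values as deposited. Detection calls were not used here, so no probe is called present or absent.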
